A study of Mus musculus with 6 samples.

Results

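TRAJ17, TRAJ15, TRAJ13, TRAJ12 and TRAJ11 are 5 joining (J) segments near the constant region end of the mouse T cell receptor alpha locus. Their members here were the sequences whose J assignment listed one of these segments and no other J gene. There were 322878 such sequences among the 3675237 sequences of 6 libraries, or 8.79%. TRAJ15 had 84591 sequences, TRAJ17 had 76777, TRAJ12 had 66992, TRAJ13 had 55018 and TRAJ11 had 39500. A further 74 sequences listed one of them beside another J gene and were left out. All 5 segments carried a single allele assignment in every library.

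The libraries were amplicons of TRAV9, TRAV11 or TRAV19 to the constant region, 1 per amplicon from wild type (WT) BALB/c mice and 1 from SKG mice. SKG mice carry a spontaneous hypomorphic mutation in Zap70, the kinase that relays signals from the T cell receptor, and according to the methods both genotypes were bred from the offspring of a cross of SKG with BALB/cJ. The cells were pre-selection double-positive (DP) thymocytes sorted as CD69- and CD5- from the thymus, at an age not given in the sources used here. The lists held no expression values, so the cell type could not be checked against marker genes. The number of mice behind a library is not given in the sources used here either, and without a second library per genotype and amplicon no difference has a replicate check: every test compares 2 libraries, not 2 genotypes.

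An alpha chain gene is assembled in DP thymocytes by joining a V segment to a J segment, and the intervening DNA is lost. Rearrangement starts at the J segments nearest to the V genes. Further rounds join V segments farther upstream to J segments farther downstream, until a receptor is positively selected or the cell dies. Segments such as TRAJ17 to TRAJ11 are therefore known as targets of late rounds. Each J segment is preceded by a recombination signal, made of a nonamer, a spacer and a heptamer, at which the RAG recombinase cuts. It also encodes the end of the third complementarity-determining region and a conserved phenylalanine-glycine motif.

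The germline segments are shown because their identity defines the members and because their recombination signals differ. Each runs from the nonamer to the last base of the segment on the plus strand of NCBIM37, with the nonamer, the heptamer and the phenylalanine-glycine motif (TTNGG and, 4 bases further on, GG) in capitals.
TRAJ17, chr14:54821422-54821512: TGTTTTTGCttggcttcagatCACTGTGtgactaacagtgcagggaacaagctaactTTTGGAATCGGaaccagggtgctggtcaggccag
TRAJ15, chr14:54824069-54824156: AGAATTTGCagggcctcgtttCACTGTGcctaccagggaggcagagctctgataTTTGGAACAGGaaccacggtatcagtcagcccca
TRAJ13, chr14:54825388-54825472: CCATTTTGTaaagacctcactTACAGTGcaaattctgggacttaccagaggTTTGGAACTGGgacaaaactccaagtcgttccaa
TRAJ12, chr14:54826200-54826285: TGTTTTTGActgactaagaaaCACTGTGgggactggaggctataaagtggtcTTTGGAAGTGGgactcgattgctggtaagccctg
TRAJ11, chr14:54826786-54826872: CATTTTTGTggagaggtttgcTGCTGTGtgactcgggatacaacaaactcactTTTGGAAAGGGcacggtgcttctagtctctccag

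Each segment is a single exon of 57 to 63 bases, and together they span 5.42 kb. GENCODE names 43 J segments upstream of TRAJ17 and 9 downstream of TRAJ11, of 59 in all. The heptamer CACTGTG stood directly before TRAJ17, TRAJ15 and TRAJ12, which is 3 of 5 members against 16 of the 59 named segments. TRAJ13 and TRAJ11 each matched 5 of its 7 bases. No member had the nonamer GGTTTTTGT exactly, nor did most segments, with 3 exact matches among the 59. The phenylalanine-glycine motif was found in all 5 members and in 45 of the 59 segments. The letters were searched on the plus strand, which is the coding strand here, and the assembly is not that of BALB/c. Between the members, TRAJ16 was listed in 35906 sequences and TRAJ14 in 0. Beside them, TRAJ18 had 112226 sequences and TRAJ9 had 55602. TRAJ10 had 0 and is not among the 59 named segments.

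Shares are given as percent of the sequences of a V gene that listed a single J gene. 6 TRAV9 genes listed alone (TRAV9D-2, TRAV9D-3, TRAV9D-4, TRAV9-2, TRAV9-3 and TRAV9-4), TRAV11 or its copy TRAV11D counted together as TRAV11/11D, and TRAV19 had at least 1000 productive sequences in both libraries. They held 313609 of the member sequences, and 2.87% lay outside them. The productive sequences behind a share numbered between 33917 (SKG TRAV9D-2) and 252048 (SKG TRAV19). Wilson 95% intervals cover counting error only, since PCR products without molecular identifiers are not independent molecules. The part of a segment's sequences that was productive changed unevenly between segments from WT to SKG. This unevenness exceeded counting error by a factor of 25.9 to 39.1 for the TRAV9 genes, 78.9 for TRAV11/11D and 99.8 for TRAV19. Scaled intervals and tests multiply the variance of the shares by that factor. The factor was not estimated from the shares themselves, and real differences between the libraries may add to it.

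The combined share of the 5 segments differed more between V genes than between genotypes. Among productive WT sequences it was 19.1% with TRAV9D-2, 17.7% with TRAV9D-3, 16.7% with TRAV9D-4, 13.04% with TRAV11/11D, 7.95% with TRAV9-2, 6.06% with TRAV9-3, 3.62% with TRAV9-4 and 1.004% with TRAV19. In SKG the same V genes gave 21.3%, 19.7%, 18.0%, 13.5%, 10.1%, 7.36%, 3.65% and 1.85%. The scaled standard errors of these 16 shares were 0.21 to 1.1 points, and the order was the same in both genotypes. The scaled intervals did not separate TRAV9D-2 from TRAV9D-3, nor TRAV9D-3 from TRAV9D-4, and they separated every other pair of neighbours in both genotypes. In NCBIM37 the 3 TRAV9D genes end 1309.2, 1280.7 and 1217.9 kb before TRAJ17, TRAV9-2 ends 610.3 kb, TRAV9-4 525.1 kb and TRAV19 355.9 kb before it. TRAV9-3 is not named there, and TRAV11 (681.9 kb) could not be told apart from TRAV11D (1376.9 kb). The assembly also names TRAV9N-2 (998.2 kb), TRAV9N-3 (969.7 kb) and TRAV9N-4 (906.7 kb), and no sequence was assigned to one of them alone. It is not the assembly of BALB/c, and distances in these mice were not measured. For TRAV11/11D and TRAV19 the V gene and the library cannot be told apart.

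**Figure D1:**
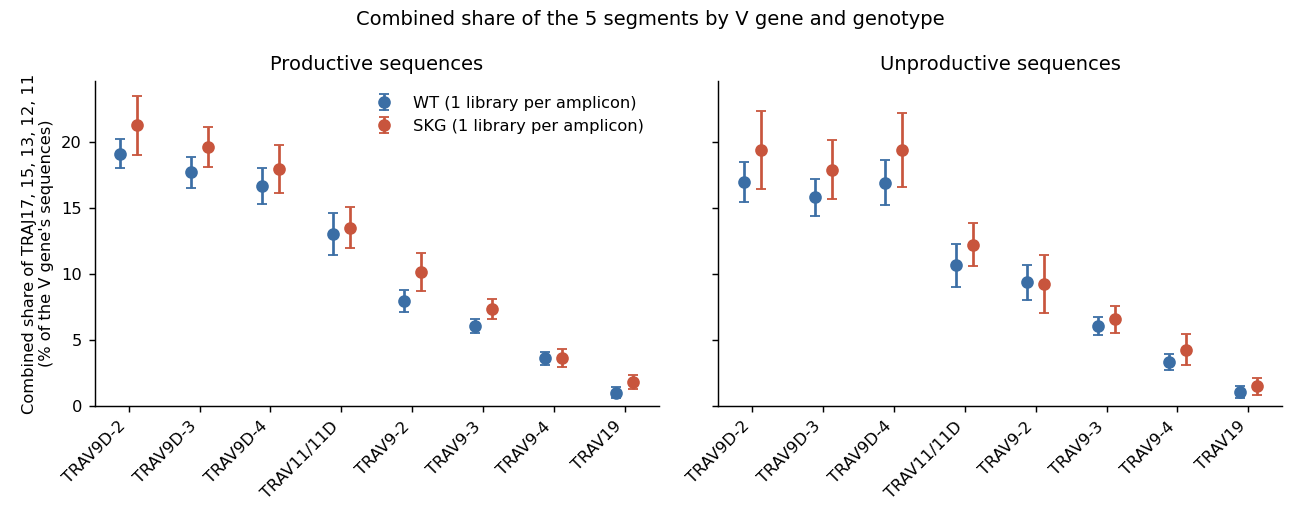
Combined share of TRAJ17, TRAJ15, TRAJ13, TRAJ12 and TRAJ11 (y axis, percent of the V gene's sequences) for 8 V genes in WT (blue) and SKG (red), for productive (left) and unproductive sequences (right). Bars are 95% intervals scaled by the factor; the share falls from 19.1% with TRAV9D-2 to 1.004% with TRAV19 in WT and from 21.3% to 1.85% in SKG.

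Each member was lower with TRAV19 than with TRAV9D-3. In a comparison chosen after the data were seen, over all segments of both genotypes and 3 pairs of V genes, all 5 members passed an adjusted p of 0.05 in WT, where 55.8% of the segments tested were lower with TRAV19. All 5 also passed in SKG, where the background was 51.2%. TRAJ11 was at 0 there with TRAV19, and that 0 added no variance to its test. This was common to TRAJ1 to TRAJ30, a set that here and below includes the members and segments on both sides of them. Of these, 20 of 21 were lower with TRAV19 in WT and 20 of 20 in SKG. The WT shares were between 10.05 times (TRAJ11) and 21.0 times (TRAJ17) higher with TRAV9D-3. TRAV9-4, the TRAV9 gene with the lowest share, was lower than TRAV9D-3 at all 5 members too, in WT (44.2% of segments) and in SKG (42.9%). Of TRAJ1 to TRAJ30, 18 of 21 were lower there in WT and 18 of 20 in SKG. There the WT ratios ran from 4.24 for TRAJ17 to 5.77 for TRAJ13.

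With TRAV11/11D the members parted. TRAJ17 and TRAJ11 were higher than with TRAV9D-3, and TRAJ15, TRAJ13 and TRAJ12 were lower, in WT and in SKG alike. TRAJ17 held 5.76% of the productive WT sequences of TRAV11/11D against 3.74% with TRAV9D-3, a difference of 2.03 percentage points (scaled interval 0.788 to 3.26). TRAJ11 held 3.82% against 1.37%, a difference of 2.45 points (1.48 to 3.41). TRAJ13 lay furthest the other way, with 0.454% against 3.81%, an 8.40-fold difference. TRAJ12 held 0.848% with TRAV11/11D and 3.94% with TRAV9D-3. Adjusted p-values of the quasi-binomial comparison in WT ran from 3.36e-22 for TRAJ13 to 0.00177 for TRAJ17. In WT, 34.9% of all segments tested were higher with TRAV11/11D and 53.5% were lower. In SKG these were 35.7% and 52.4%, and the TRAJ13 difference was 10.8-fold. Differences of either sign were thus common among all segments. Of TRAJ1 to TRAJ30, members included, 5 of 21 were higher and 14 lower in WT, and 5 of 20 and 12 in SKG. Among unproductive sequences the higher TRAJ11 and the lower TRAJ13 and TRAJ12 passed in both genotypes, TRAJ17 passed in SKG but not in WT (3.78% against 2.83%, quasi-binomial adjusted p = 0.139), and TRAJ15 passed in neither. The background there was 29.5% higher and 47.7% lower in WT, and 31.8% and 43.2% in SKG.

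The make-up of the 5 segments showed the same contrast without the rest of the J array. With the 6 TRAV9 genes, TRAJ11 was the least used member in all 12 combinations of gene and genotype, at 4.38% to 10.6% of the members' productive sequences. By count, TRAJ15 was first in 10 of the 12 and TRAJ12 in the other 2. With TRAV9D-3 the scaled interval set TRAJ15 apart from TRAJ12 in WT but not in SKG (0.0448 points of all productive sequences, -1.17 to 1.26). Ranks with the other TRAV9 genes were not compared in this way. With TRAV11/11D, TRAJ17 came first, with 44.2% in WT and 44.4% in SKG, and TRAJ11 followed with 29.3% and 25.6%. TRAJ15 made up 16.6% and 20.4%, TRAJ12 6.50% and 6.76%, and TRAJ13 3.48% and 2.87%. The scaled interval set TRAJ11 apart from TRAJ15 in WT but not in SKG (0.701 points of all productive sequences, -0.409 to 1.81). The pairs TRAJ11 and TRAJ12, which are 528 bases apart, and TRAJ17 and TRAJ13 were chosen after their values were seen. There were 0.160 to 0.479 TRAJ11 sequences for each TRAJ12 sequence with the TRAV9 genes. With TRAV11/11D there were 4.50 in WT (scaled interval 2.56 to 7.91) and 3.78 in SKG (2.24 to 6.38). For each TRAJ13 sequence there were 0.750 to 1.33 TRAJ17 sequences with the TRAV9 genes, and 12.7 in WT and 15.5 in SKG with TRAV11/11D.

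The same held among unproductive sequences, which encode no functional chain. There TRAJ11 was again last in 12 of 12 combinations of TRAV9 gene and genotype, and the ratio of TRAJ11 to TRAJ12 was 0.213 to 0.508. With TRAV11/11D it was 14.7 in WT (scaled interval 4.85 to 44.4) and 5.53 in SKG (2.74 to 11.2). The first place moved between classes: with the TRAV9 genes TRAJ12 led in 7 of 12 unproductive combinations and TRAJ15 in 5.

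**Figure D2:**
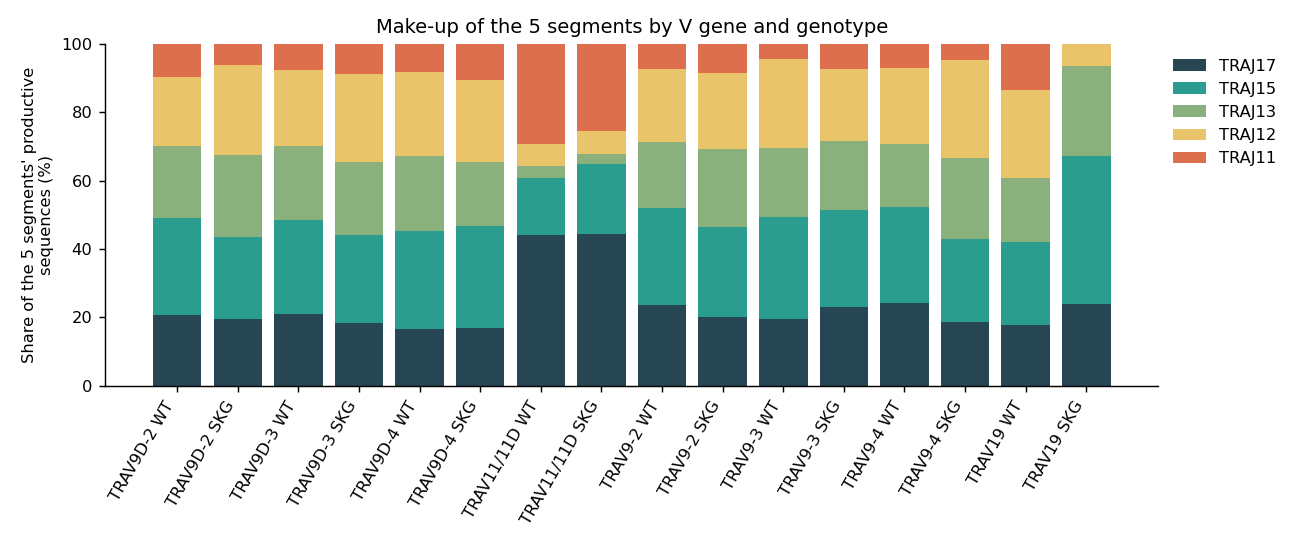
Make-up of the 5 segments' productive sequences (y axis, percent of the members' sequences) for 8 V genes in WT and SKG, 1 bar each, stacked by segment. TRAJ11 takes 4.38% to 10.6% of a TRAV9 bar and 29.3% and 25.6% of the TRAV11/11D bars, and it is missing from the SKG TRAV19 bar.

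Between genotypes, the combined productive share was higher in SKG for 8 of 8 V genes, by 0.0304 points with TRAV9-4 to 2.20 points with TRAV9-2. The members were not alone in this, since TRAJ28 to TRAJ21, the block upstream, was also higher for 8 of 8 V genes and the sum of TRAJ9, TRAJ6, TRAJ4 and TRAJ2 for 7 of 8. The members' scaled interval lay above 0 for 4 of 8 V genes, against 3 of 8 for TRAJ28 to TRAJ21 and 3 of 8 for the downstream sum. For the members these were TRAV9-2 (2.20 points, 0.542 to 3.85), TRAV9D-3 (1.93 points, 0.00832 to 3.84), TRAV9-3 (1.298 points, 0.399 to 2.20) and TRAV19 (0.846 points, 0.183 to 1.51). With TRAV11/11D the difference was 0.487 points (-1.71 to 2.68), with TRAV9D-2 2.14 points (-0.335 to 4.61) and with TRAV9D-4 1.31 points (-0.964 to 3.59). Among unproductive sequences the members' share was higher in SKG for 7 of 8 V genes, no scaled interval lay above 0, and with TRAV9-2 the difference was -0.146 points. TRAJ28 to TRAJ21 and the downstream sum each had 2 intervals above 0 there.

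As a share of TRAJ1 to TRAJ30 rather than of all segments, the members were higher in SKG for 4 of 8 V genes and lower for 4, and the scaled interval lay off 0 for 1, TRAV9-4. They went from 31.0% in WT to 31.3% in SKG with TRAV9D-3, from 29.0% to 27.8% with TRAV11/11D and from 23.2% to 25.0% with TRAV19. With TRAV9-4 the members went from 23.8% to 19.0% of these segments (-4.78 points, scaled interval -9.13 to -0.428). There the members held 3.62% and 3.65% of all productive sequences, while TRAJ28 to TRAJ21 went from 5.90% to 7.84% and the downstream sum went from 2.004% to 3.17%. With TRAV19 the downstream sum went from 0.782% to 2.14%, 2.74-fold, against 1.84-fold for the members and 1.37-fold for TRAJ28 to TRAJ21.

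Taken one by one, the members did not pass the test between genotypes. Of 39 member and V gene pairs with at least 50 sequences in each library, 0 had an adjusted p under 0.05 (quasi-binomial comparison, Benjamini-Hochberg over 329 pairs), 5 had an unadjusted p under 0.05 (22.2% of all pairs did), and Fisher's exact test without the factor called 34, against 83.0% of all pairs. Over all 329 pairs, 1.82% passed as higher in SKG and 5.78% as lower. By size alone, 16 of the 39 were over 25% higher in SKG, against 30.7% of all pairs, and 4 were over 20% lower, against 20.1%. The share was higher in SKG at all in 28 of 39 and in 194 of 329. With TRAV9D-3, 2 of 5 members were past this size as higher and 0 as lower (background 19.0% and 16.7%). With TRAV11/11D it was 1 and 0 of 5 (30.6% and 25.0%), and with TRAV19 3 and 1 of 4 (43.6% and 17.9%). The median log2 ratio of SKG to WT over the members was 0.13 with TRAV9D-3, 0.06 with TRAV11/11D and 1.35 with TRAV19, against -0.01, 0.09 and 0.10 over all segments tested and 0.14, 0.14 and 0.85 over TRAJ1 to TRAJ30. The TRAV19 median left out TRAJ11, and with TRAJ11 at its bound it was 1.32. The members' median lay above the median of all segments for 5 of 8 V genes and above that of TRAJ1 to TRAJ30 for 3 of 8.

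TRAJ17 is the most upstream member and adjoins TRAJ18, the J segment of the invariant natural killer T cell receptor. In WT its productive share was 3.96% with TRAV9D-2, 3.74% with TRAV9D-3, 2.77% with TRAV9D-4, 1.88% with TRAV9-2, 1.18% with TRAV9-3, 0.882% with TRAV9-4, 5.76% with TRAV11/11D and 0.178% with TRAV19. In SKG it was 4.17%, 3.59%, 3.02%, 2.04%, 1.70%, 0.681%, 6.01% and 0.444%. The scaled standard errors were 0.0870 to 0.558 points. It was the member most used with TRAV11/11D, and the scaled interval set it apart from TRAJ11, the next, in both genotypes. The difference between genotypes with the lowest p was that of TRAV9-3, 0.522 points (scaled interval 0.0880 to 0.956, quasi-binomial adjusted p = 0.124).

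TRAJ15 was by count the most used member with most TRAV9 genes. Its WT shares were 5.45%, 4.87%, 4.77%, 2.25%, 1.803%, 1.02%, 2.16% and 0.244% of the productive sequences in the same order of V genes. The SKG shares were 5.11%, 5.09%, 5.38%, 2.67%, 2.09%, 0.890%, 2.76% and 0.797%, and the scaled standard errors were 0.102 to 0.608 points. With TRAV19 the difference was 0.553 points (scaled interval 0.153 to 0.954), from 572 WT and 2010 SKG sequences, or 3.27-fold. Its quasi-binomial adjusted p of 0.0673 was the lowest among the members, and it was 0.0288 over all functionality classes. Divided by the factor of 99.8, all 5 members with TRAV19 came to 23.6 productive sequences in WT and 46.7 in SKG. TRAJ15 is only a part of these, so the normal approximation rests on little here. Unproductive TRAV19 sequences also held more TRAJ15 in SKG, with 0.415% against 0.199%.

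TRAJ13 carries a heptamer that departs from CACTGTG, as most of the 59 named segments do. A relation of the heptamer to the shares was not tested. With the TRAV9 genes TRAJ13 held 3.99%, 3.81%, 3.69%, 1.54%, 1.24% and 0.661% in WT and 5.07%, 4.18%, 3.38%, 2.32%, 1.49% and 0.866% in SKG, close to TRAJ17. The scaled standard errors were 0.0896 to 0.606 points. With TRAV11/11D it was the least used member, at 0.454% in WT and 0.388% in SKG. There the scaled interval separated it from TRAJ12 in SKG but not in WT. With TRAV19 it held 0.189% and 0.490% (difference 0.301 points, scaled interval -0.0228 to 0.626), and the unproductive share was 0.221% in both.

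TRAJ12 showed the largest single differences in points between genotypes among the members' productive shares. Among unproductive sequences TRAJ15 differed by more, 2.12 points with TRAV9D-2. With TRAV9D-2 TRAJ12 went from 3.88% of productive sequences in WT to 5.60% in SKG (1.72 points, scaled interval 0.363 to 3.08, quasi-binomial adjusted p = 0.0968). With TRAV9D-3 it went from 3.94% to 5.04% (1.10 points, 0.0748 to 2.13, quasi-binomial adjusted p = 0.182). The unproductive TRAJ12 share with TRAV9D-3 was 4.98% in WT and 4.94% in SKG, and no such difference was seen there. With TRAV9D-2 the unproductive TRAJ12 share also rose, from 4.92% to 5.96% (1.03 points, quasi-binomial adjusted p = 0.790). With TRAV9D-4 its productive share was 4.07% and 4.29%, with TRAV9-2 1.70% and 2.27%, with TRAV9-3 1.57% and 1.55% and with TRAV9-4 0.807% and 1.05%. TRAV11/11D gave 0.848% and 0.914%, and the scaled standard errors over all V genes were 0.0684 to 0.635 points. With TRAV19 it was 0.257% in WT and 0.118% in SKG, the only member tested there with a lower SKG share. Among unproductive TRAV19 sequences it ran the other way, from 0.355% to 0.544%. The difference between TRAV19 and TRAV9D-3 in its log odds ratio was -1.04 ± 0.718 (scaled SE) and did not pass (quasi-binomial adjusted p = 0.457). None of the 13 member tests of this kind passed an adjusted p of 0.05, against 0.909% of 110 over all segments.

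TRAJ11 is the most downstream member. It held 1.86%, 1.37%, 1.37%, 0.586%, 0.265% and 0.258% of the productive WT sequences of the 6 TRAV9 genes, and 1.32%, 1.75%, 1.90%, 0.848%, 0.533% and 0.168% in SKG. The ratio of SKG to WT thus ran from 0.649 with TRAV9-4 to 2.01 with TRAV9-3 (0.268 points, scaled interval 0.0342 to 0.501, quasi-binomial adjusted p = 0.150). The unproductive share with TRAV9-3 was 0.488% in WT and 0.502% in SKG. With TRAV11/11D the productive share was 3.82% and 3.46%, and the scaled standard errors were 0.0572 to 0.459 points. With TRAV19 it was listed in 320 productive and 308 unproductive WT sequences and in 0 SKG sequences of any class. Among productive sequences that is 0.137% in WT (Wilson 95% interval 0.122 to 0.152). In SKG 0 of 252048 sequences allows a share of up to 0.00119%, which the WT share exceeded 115-fold and its lower Wilson limit 103-fold, by counting error alone. Divided by the factor of 99.8, however, the 320 WT sequences come to 3.21, a scaled value and not a number of rearrangements. The WT share's scaled interval (-0.0128% to 0.286%) then holds the floor scaled likewise (0.119%), so no lower productive share is shown on that scale. Over all classes the 628 WT sequences come to 6.29, and the WT share was 1.94 times the scaled floor, without an interval. This pair had too few SKG sequences for the test.

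**Figure D3:**
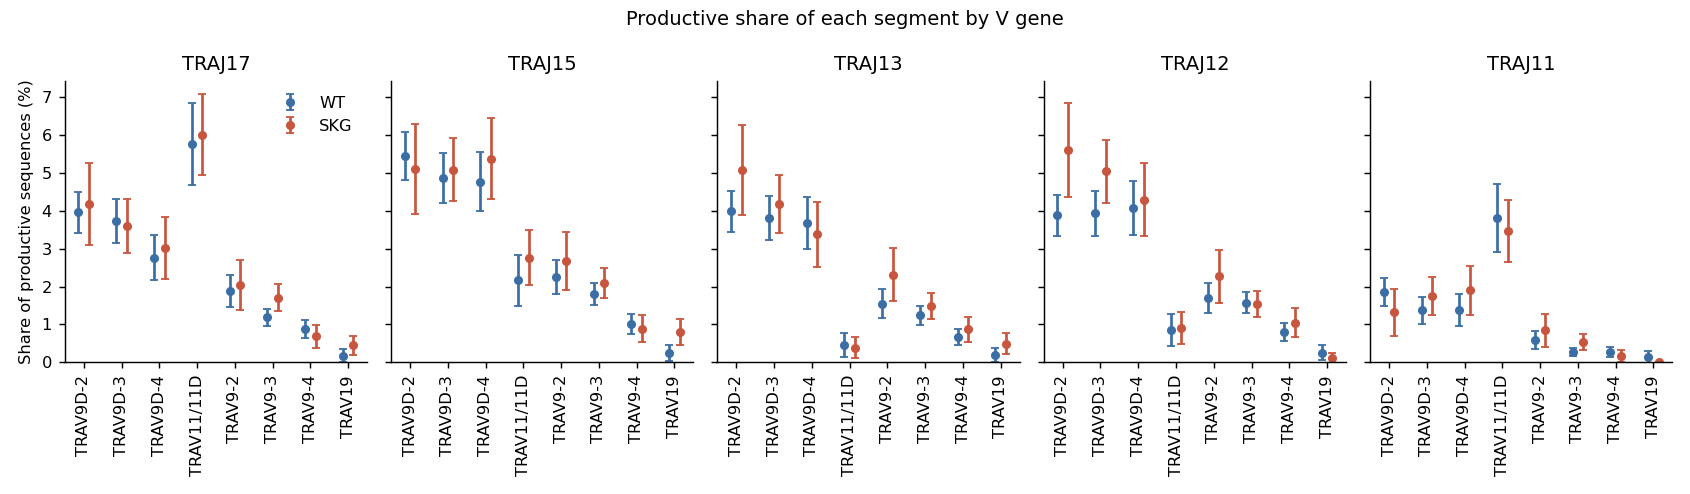
Share of each segment among productive sequences (y axis, percent) for 8 V genes in WT (blue) and SKG (red), with 95% intervals scaled by the factor, cut off at 0. TRAJ17 and TRAJ11 peak with TRAV11/11D, at 5.76% and 3.82% in WT, where TRAJ13 and TRAJ12 are at 0.454% and 0.848%.

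**Figure D4:**
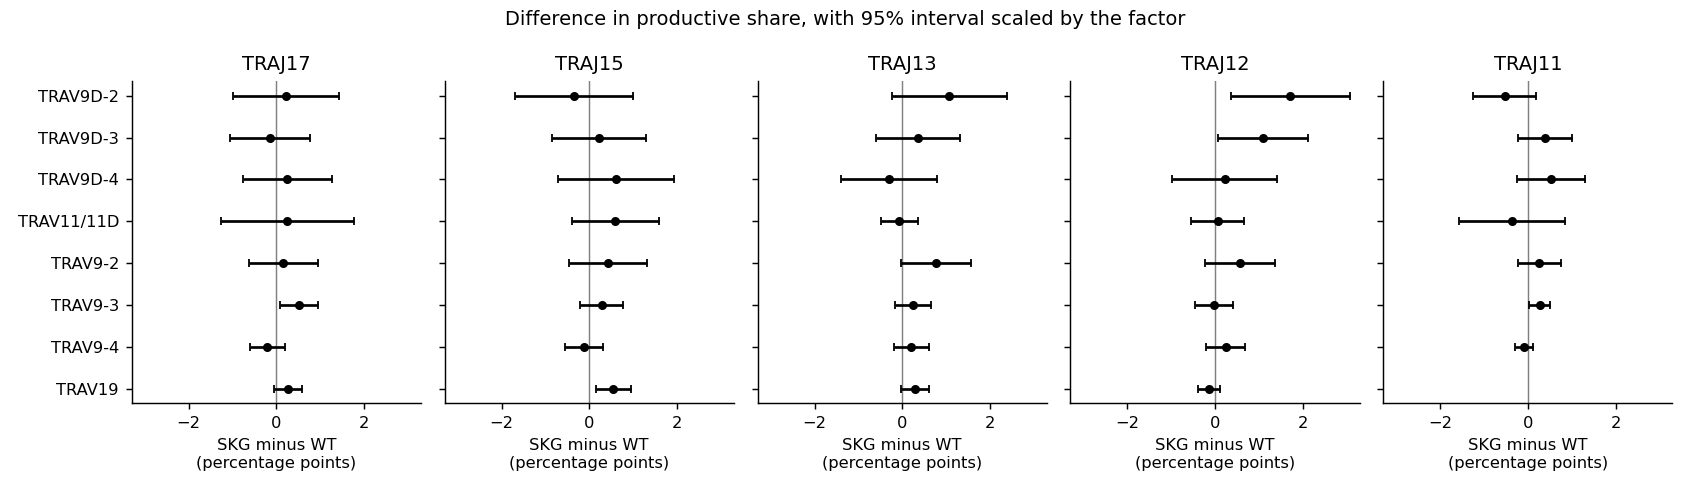
SKG minus WT in the productive share (x axis, percentage points) of each segment with each V gene, as points with 95% intervals scaled by the factor. The intervals of 5 of the 39 pairs lie off 0, among them TRAJ12 with TRAV9D-2 (1.72 points) and TRAJ15 with TRAV19 (0.553 points); TRAJ11 with TRAV19 was not tested.

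The functionality class assigned by IMGT says whether a sequence has an open reading frame across the junction. Of the members' sequences, the productive part was higher in SKG in 30 of 40 pairs of segment and V gene and lower in 9, and 1 pair had no SKG sequences. Wilson intervals lay apart in 21 of the pairs that were higher and 5 that were lower, and these cover counting error only. Of all 338 pairs that reached 50 sequences in WT and in SKG, 76.0% were higher in SKG, 60.1% with intervals apart, and 14.2% were lower with intervals apart, so the members were near the background. The productive part was higher in SKG for 7 of 8 V genes over all J segments and for 6 of 8 over the members. With TRAV9D-3 it was 63.7% in WT and 72.0% in SKG over the members, against 61.0% and 70.1% over all segments. With TRAV11/11D the members had 60.1% and 58.1%, against 55.2% and 55.6%.

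Single members spread further. TRAJ12 had a lower productive part than TRAJ17 in 11 of 12 combinations of TRAV9 gene and genotype, for example 55.3% against 67.4% in WT TRAV9D-3. It was below TRAJ13 in 10 of 12 and below TRAJ15 in 8 of 12. Against TRAJ11 it was lower in WT TRAV9D-3 (TRAJ11 63.4%) and higher in WT TRAV9-3 (64.7% against 46.1%). Such counts were not made for other segments. With TRAV11/11D the WT order of TRAJ12 and TRAJ17 was the opposite, with 81.6% for TRAJ12 and 65.3% for TRAJ17. The extremes between genotypes were both with TRAV19. TRAJ13 went from 51.6% (Wilson 95% interval 48.3 to 55.0) to 80.1% (78.0 to 82.0), and TRAJ12 from 47.5% (44.7 to 50.2) to 28.3% (25.7 to 31.1). TRAJ11 with TRAV9-3 went from 46.1% to 70.9%. SKG minus WT had the same sign in productive and unproductive shares in 28 of 40 pairs. The same count was not made over all segments, so it shows nothing particular to the members.

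**Figure D5:**
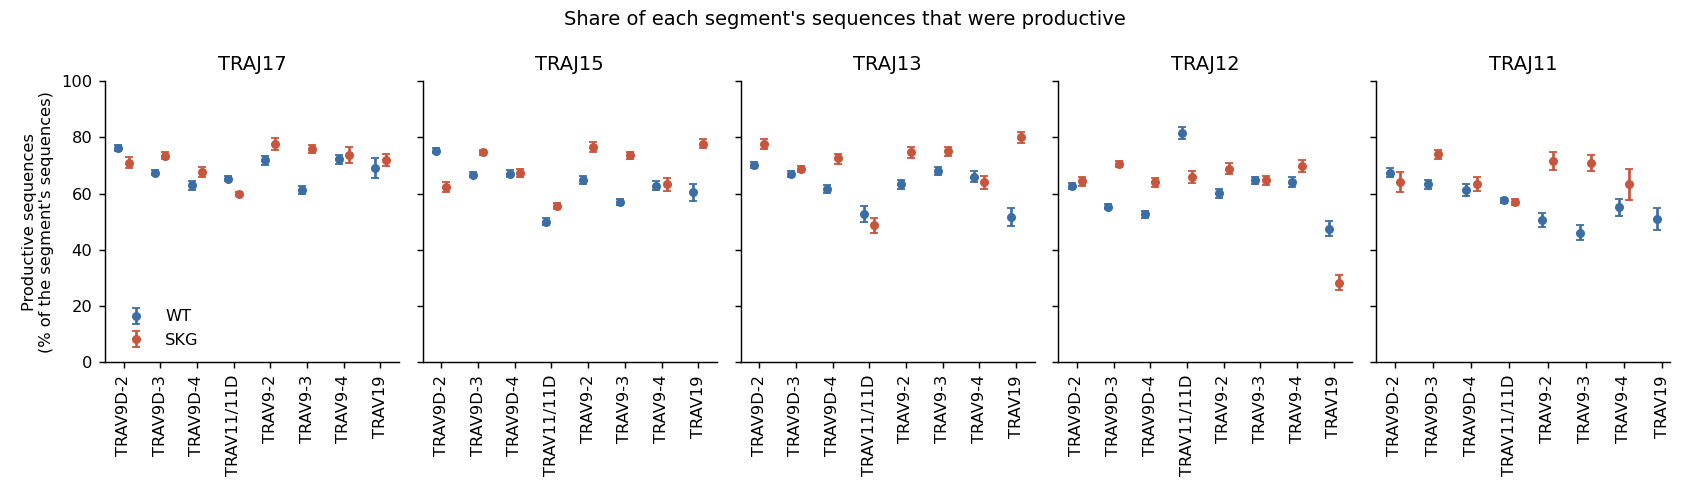
Part of each segment's sequences that were productive (y axis, percent) for 8 V genes in WT (blue) and SKG (red), with Wilson 95% intervals that cover counting error only. Most SKG points lie above the WT points; TRAJ12 with TRAV19 runs the other way, from 47.5% to 28.3%.

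Across the 16 combinations of V gene and genotype, the segments whose log2 productive share followed the members' sum most closely were TRAJ4 (Pearson r = 0.954), TRAJ9 (0.936) and TRAJ6 (0.903), all downstream of TRAJ11. The points share libraries and the values are a description. Between members, r ran from 0.41 for TRAJ13 and TRAJ11 to 0.90 for TRAJ13 and TRAJ12.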

How the data were processed

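The data were 6 lists of distinct sequences, 1 per genotype and amplicon. According to the methods, the authors sequenced amplicons of cDNA (the labels name genomic DNA), built sequences with MiXCR, trimmed primers with cutadapt (version 1.13 per the labels, which also name the mm10 build), removed exact duplicates and assigned genes with IMGT/HighV-QUEST. The deposited identifiers name sequences and measure nothing; the deposited lists hold no read counts or nucleotides, so copies of a rearrangement that differ by an error count separately. Library sizes ran from 249693 to 1587280 sequences, and 3 sequences, the floor for a count of 0, stand for 0.00119% to 0.00885% of a V gene's productive sequences.

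Sequences were counted per V gene, class and J segment. For the factor, a logistic model with segment and library terms was fitted to the productive part of each segment, and its Pearson statistic was divided by the residual degrees of freedom. Pairs over 25% higher or 20% lower in SKG were counted. Scaled intervals are normal 95% intervals with the variance multiplied by it. Segments with at least 50 sequences in both libraries were compared between genotypes by two-sided quasi-binomial tests, Benjamini-Hochberg adjusted. For the comparisons of V genes within a genotype, at least 50 sequences with either V gene sufficed. Differences of combined shares also had Newcombe intervals. Calculations were tested on simulated data. Alternatives were other classes, other V and J listing rules, Fisher's exact test, another factor, a minimum of 200, and a fold of 1.5.

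Germline sequences came from NCBIM37 with GENCODE annotation, whose older names were matched to symbols through RefSeq's GRCm38.p6 table (names only). The segments named are the 5 members, their neighbours by counts, 2 blocks as sums and the 3 segments most like the members. The members and lists were chosen with earlier results of these data known. Python 3.11.15, numpy 2.4.6, pandas 2.3.3, scipy 1.17.1, statsmodels 0.14.6 and matplotlib 3.10.9 were used.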

Additional observations from a re-analysis of the deposited data

Results flagged for a closer look

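TRAJ11 with TRAV19 had opposite directions to TRAJ11 with TRAV9D-3: with TRAV19 the WT share was 115 times the SKG floor by counting error alone (320 productive WT sequences and 0 in SKG), and 1.15 times it once scaled by the factor, where no lower share is shown. With TRAV9D-3 it went from 1.37% to 1.75%, which did not pass (0.381 points, quasi-binomial adjusted p = 0.478). The difference was not tested, since the SKG TRAV19 sequences held no TRAJ11.

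The TRAV19 libraries also held sequences of V genes that were not amplified on purpose, and these stood outside the comparisons. They were 1.05% of the WT library and 1.60% of the SKG library. The 5 segments made up 18.7% of them in WT (843 of 4497, Wilson 95% interval 17.6 to 19.9) and 20.8% in SKG (1320 of 6346, 19.8 to 21.8), against 1.02% and 1.72% of the TRAV19 sequences of all classes. Most of these sequences listed TRAV4D-3, with 3841 in WT and 5096 in SKG. They supplied 16.4% of the member sequences in each TRAV19 library, and 51 WT and 19 SKG sequences among them listed TRAJ11.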

How the results depend on the processing

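No paired analysis was possible because each genotype and amplicon had 1 library, so no replicate numbers could be paired and no library could be left out. The combined difference between genotypes (SKG minus WT, productive, in points: 1.93 for TRAV9D-3, 0.487 for TRAV11/11D, 0.846 for TRAV19) moved beyond its Newcombe interval under these settings. Among TRAJ1 to TRAJ30 it was 0.338, -1.26 and 1.85 in that order of V genes, and it turned to -0.251 for TRAV9D-4, -0.460 for TRAV9-2 and -4.78 for TRAV9-4. Unproductive sequences gave 1.59 for TRAV11/11D, 0.457 for TRAV19 and -0.146 for TRAV9-2, and all classes gave 0.987 for TRAV11/11D and 0.705 for TRAV19. With TRAJ17 left out it was 0.236 for TRAV11/11D and 0.580 for TRAV19. Leaving out TRAJ15 gave -0.111 for TRAV11/11D and 0.292 for TRAV19, and leaving out TRAJ13 gave 1.56 for TRAV9D-3, 0.544 for TRAV19 and -0.175 for TRAV9-4. Without TRAJ12 it was 0.823 for TRAV9D-3, 0.984 for TRAV19 and -0.211 for TRAV9-4, and without TRAJ11 it was 1.54 for TRAV9D-3, 0.849 for TRAV11/11D and 0.982 for TRAV19.

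The count of member and V gene pairs past an adjusted p of 0.05 was 0 higher and 0 lower with unproductive sequences, any TRAV9 listing, the first-listed J gene, the largest factor and a minimum of 200. It was 1 higher over all classes (TRAJ15 with TRAV19; 3.55% of all pairs). Fisher's exact test without the factor, which takes every sequence as independent, called 25 higher and 9 lower (49.2% and 33.7% of all pairs). At a fold of 1.5, 5 pairs were higher and 2 lower (11.2% and 10.6%).

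Single differences changed sign in 12 of 39 pairs with unproductive sequences: TRAJ17 with TRAV9D-3 (0.216 points), TRAJ15 with TRAV9D-2 (2.12), TRAV9-2 (-0.394), TRAV9-3 (-0.425) and TRAV9-4 (0.202), TRAJ13 with TRAV9D-2 (-0.808) and TRAV11/11D (0.0106), TRAJ12 with TRAV9D-3 (-0.0454), TRAV9D-4 (-0.432), TRAV9-3 (0.588) and TRAV19 (0.190), and TRAJ11 with TRAV9-2 (-0.310). Over all classes 4 did: TRAJ15 with TRAV9D-2 (0.460), TRAJ17 with TRAV9D-3 (0.0475), and TRAJ12 with TRAV9D-4 (-0.113) and TRAV9-3 (0.179). With any TRAV9 listing 1 did, TRAJ12 with TRAV9-3 (0.00502). Sign changes were not counted over all segments, and their cause was not tested. Divided by the factor, the productive member sequences with TRAV19 amount to 23.6 in WT and 46.7 in SKG, against 104 to 943 with the other V genes.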
